A study of Mus musculus with 10 samples.

Results

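The CCN family of secreted matrix-associated proteins was followed in the aortic wall of mice 7 days after infusion of elastase or saline. Its members were taken as the array probes, other than control spots, whose gene name was Ctgf (now Ccn2), Cyr61 (Ccn1), Nov (Ccn3), Wisp1 (Ccn4) or Wisp2 (Ccn5). These were 5 of the 35527 gene names on the array, measured by 6 probes, since Wisp1 had a pair of them. A sixth relative, Wisp3 (Ccn6), lay outside the set, and its probe was well above background in aortic RNA on 0 of 10 arrays.

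CCN proteins are cysteine-rich and modular, and act between cells and matrix by binding integrins, heparan sulphate proteoglycans and growth factors more than by forming fibres. Ctgf and Cyr61 are induced in vascular cells by TGF-beta, by stretch and by the Hippo pathway effectors YAP and TAZ acting with TEAD factors. Nov is made by vascular smooth muscle and endothelium and is often described as opposing Ctgf, and Wisp1 and Wisp2 were first found as genes induced by Wnt-1 signalling.

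All mice were male C57BL/6J on a normal diet, 10 weeks old, and all had surgery, in which the isolated infrarenal aorta was infused for 5 min at 100 mmHg. The PPE group (n = 5) received saline with type I porcine pancreatic elastase at 1.5 U/mL, which breaks down elastic fibres and is used to model abdominal aortic aneurysm. The sham group (n = 5) received saline alone, so it controls for the infusion and not for an unoperated wall. Each array carried RNA of 1 aorta, not pooled, labelled red (Cy5), beside a universal mouse reference RNA labelled green (Cy3), and each value is a log2 ratio of aorta over reference. A value of a member cannot be set against that of another, since the reference may hold different amounts of each, but differences between groups can.

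Between 37.6% and 65.8% of spots per array were well above background in the red channel, lowest on sham 5 and PPE 5, and no spot was saturated. Arrays came from 5 slides: sham 1, PPE 1 and PPE 2 shared slide 1, sham 2, sham 3, PPE 3 and PPE 4 shared slide 2, and sham 4, sham 5 and PPE 5 each lay on a slide of its own. Slide 1 was scanned on a different day from the rest. Differences within slides 1 and 2 are therefore given beside the pooled ones, and those within slide 1 rest on 1 sham array. Of 22520 gene names tested with limma, 3122 were higher in PPE and 2244 lower at an adjusted p under 0.01, and the median difference was 0.02.

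The values rest on 60-base probes at the following positions of mm9, of which 30 bases each are shown, 5′ to 3′, so that the transcript measured can be identified. In the second Wisp1 probe an open reading frame ends at the triplet in capitals, and the first lies 3679 bases further along the chromosome.
Ctgf, chr10:24318281-24318340, plus strand: gtgaacaaatggcctttattaagaaatggc
Cyr61, chr3:145310187-145310246, minus strand: aagtgaaagccctgcttgtcctttgacaga
Nov, chr15:54584204-54584263, plus strand: gaatgtaaacttagaatcaaggtaagctca
Wisp1 probe 1, chr15:66754637-66754696, plus strand: tcatgatctgtgtagcagggaatgtgtttg
Wisp1 probe 2, chr15:66750958-66751017, plus strand: accctgacttcgaagagattgccaatTAGg
Wisp2, chr2:163658717-163658776, plus strand: cacatctcttaaatgctcacaaagcaagag
Over the full 60 bases, probes of different members shared no run longer than 8 bases.

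The family did not move as a block. Wisp1 rose 5.37-fold in PPE aortas and Wisp2 rose 1.61-fold, while Nov fell 2.09-fold, so that 2 members were called higher and 1 lower. Over all names tested, 13.9% were called higher and 9.96% lower. Ctgf was 2.57-fold lower in PPE but lay just outside the threshold (limma, adjusted p = 0.0101), and Cyr61, 1.65-fold lower, was not called (limma, adjusted p = 0.171). The PPE and sham values did not overlap for 3 of the 5 members, Ctgf, Wisp1 and Wisp2, against 25.4% of all names tested. All 5 members were well above background in the red channel on all 10 arrays, and all 5 passed the filter on dim probes.

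**Figure D1:**
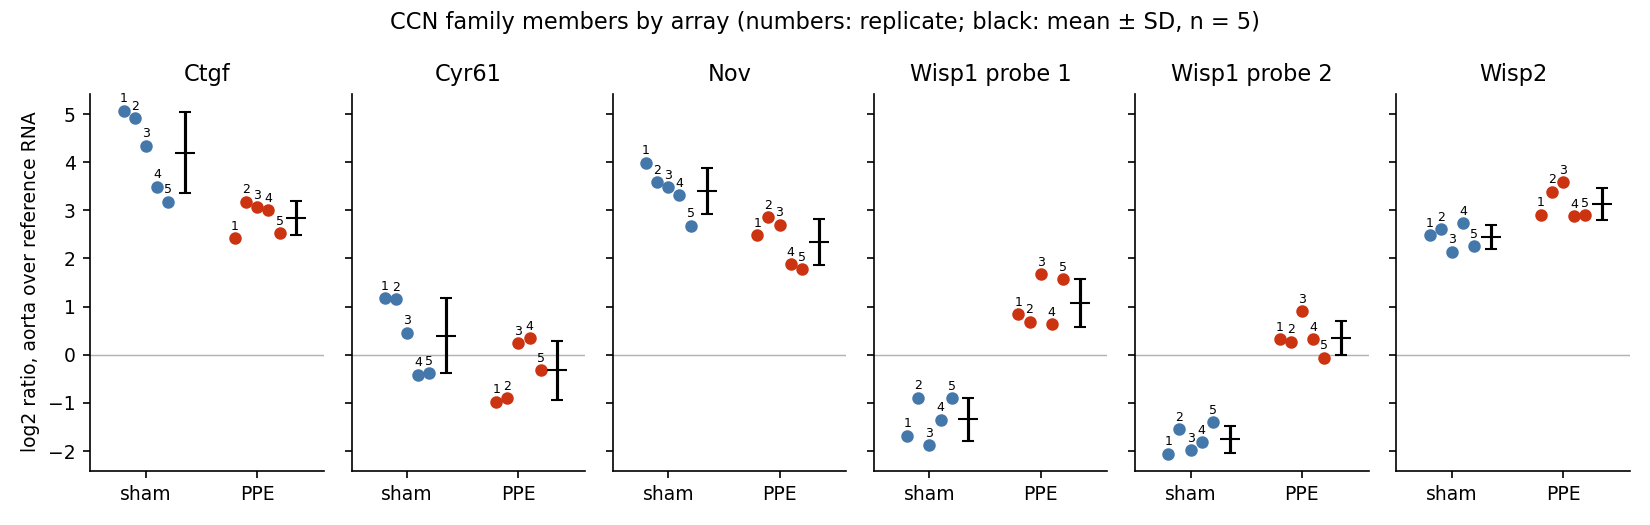
Log2 ratio of aorta over reference RNA (vertical axis) for each member in the 5 sham (blue) and 5 PPE (red) arrays, with the replicate number above each point and the mean ± SD in black. Both Wisp1 probes and Wisp2 lie higher in every PPE array than in any sham array, while Ctgf spreads from 3.18 to 5.07 in sham and only from 2.42 to 3.18 in PPE.

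Wisp1, a Wnt-1-induced secreted protein made by activated fibroblasts and mesenchymal cells, moved furthest. Its log2 ratio was -1.68, -0.89, -1.88, -1.35 and -0.90 in sham 1 to 5. It was 0.84, 0.69, 1.67, 0.64 and 1.57 in PPE 1 to 5. On this probe, after loess, every sham aorta lay below the reference and every PPE aorta above it, with the highest PPE values on arrays 3 and 5. Before background correction and loess, the red mean signal exceeded the green only on PPE 1 and PPE 2. The group means were -1.34 ± 0.45 and 1.08 ± 0.50 (SD, n = 5 each), a difference of 2.43 (SE 0.26, 95% interval 1.85 to 3.0; limma, adjusted p = 3.45e-05). Its rank by p was 907 of 22520, and 98.2% of names had a signed difference at or below it. The exact two-sided permutation test over arrays gave p = 0.00794, the smallest that 5 against 5 arrays allow. The difference was 2.44 within slide 1 and 2.55 within slide 2, close to the pooled value. By channel, the groups differed by 2.29 in the red signal of the aorta and by -0.14 in the green signal of the reference. For this split only, mean brightness was also quantile-normalised between arrays. The same red and green differences were 0.56 and -0.13 for Wisp2 and -0.93 and 0.14 for Nov. They were -1.11 and 0.25 for Ctgf and -0.70 and 0.02 for Cyr61.

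The second Wisp1 probe, on another stretch of the transcript, also gave a rise in PPE. Its log2 ratio was -2.05, -1.55, -1.98, -1.81 and -1.40 in sham and 0.33, 0.27, 0.91, 0.32 and -0.06 in PPE. The groups were again apart, by 2.11 (SE 0.19, limma, adjusted p = 7.74e-06 over all probes). PPE 5, at -0.06, was now the lowest of the PPE arrays and lay just below the reference. On the first probe PPE 5 had been the second highest, so the order of PPE aortas differed between the probes while the separation of the groups did not.

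Wisp2, a member that lacks the carboxy-terminal cysteine-knot domain of the other four and is expressed in fibroblasts and vascular smooth muscle, rose by less. Its log2 ratio was 2.49, 2.61, 2.14, 2.74 and 2.25 in sham 1 to 5. It was 2.91, 3.39, 3.59, 2.88 and 2.90 in PPE 1 to 5. The lowest PPE aorta, at 2.88, was above the highest sham aorta, at 2.74, and 3 of the PPE arrays lay close together just above that gap. The means were 2.45 ± 0.25 and 3.13 ± 0.33 (SD, n = 5 each), a difference of 0.69 (SE 0.17, 95% interval 0.30 to 1.07; limma, adjusted p = 0.00945; exact permutation p = 0.00794). Within slides the difference was 0.66 and 0.86. The call lay at the threshold and held in only 2 of the 10 fits that left out 1 array, those without sham 4 or PPE 5, with adjusted p between 0.00823 and 0.0241. In those fits the difference itself stayed between 0.57 and 0.76.

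Nov, a CCN protein of vascular smooth muscle and endothelium, fell in PPE aortas. Its log2 ratio was 3.99, 3.58, 3.48, 3.31 and 2.68 in sham 1 to 5. It was 2.49, 2.86, 2.70, 1.88 and 1.78 in PPE 1 to 5. The groups overlapped only through sham 5, which lay below PPE 2 and PPE 3. The means were 3.41 ± 0.48 and 2.34 ± 0.49 (SD, n = 5 each), a difference of -1.06 (SE 0.27, 95% interval -1.65 to -0.48; limma, adjusted p = 0.00896; exact permutation p = 0.0238). Within slides it was -1.31 and -1.24. Sham 5 and PPE 5 had the dimmest red spots for Nov, with mean signals of 416.0 and 327.8 against at least 1008 on the other arrays, and without both the difference was -1.11 (limma, adjusted p = 0.00349). Leaving out 1 array at a time, the call held in 2 of 10 fits, those without sham 5 or PPE 2, with differences from -1.25 to -0.92.

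Ctgf, the member best known as a downstream effector of TGF-beta in fibrosis, had the largest spread among sham aortas. Its log2 ratio was 5.07, 4.91, 4.34, 3.49 and 3.18 in sham 1 to 5. It was 2.42, 3.18, 3.07, 3.01 and 2.52 in PPE 1 to 5. Sham 1, 2 and 3 stood well above all PPE aortas, whereas sham 5 and PPE 2 met at 3.18, so the groups touched without overlapping. The means were 4.20 ± 0.84 and 2.84 ± 0.35 (SD, n = 5 each), a difference of -1.36 (SE 0.35, 95% interval -2.13 to -0.59; exact permutation p = 0.00794). Within slides the difference was -2.27 on slide 1, where the only sham array was sham 1, the highest, and -1.59 on slide 2. With slide as a fixed block, in which the 3 arrays alone on their slides carry no weight, it was -1.86 (limma, adjusted p = 0.00106), and with slide as a random block -1.56 (limma, adjusted p = 0.00107). It also passed the threshold without sham 4 (-1.54) or without sham 5 (-1.61), and without sham 1 the difference was -1.14. Centring of arrays on their median in place of loess reduced it to -0.49 (limma, adjusted p = 0.716), and scaling between arrays gave -1.98 (SE 0.76; limma, adjusted p = 0.0710).

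Cyr61, an immediate-early gene that responds to serum, stretch and YAP, was also higher on sham 1, 2 and 3 than on sham 4 and 5. Its log2 ratio was 1.17, 1.16, 0.46, -0.41 and -0.38 in sham 1 to 5. It was -0.97, -0.90, 0.24, 0.34 and -0.32 in PPE 1 to 5. Sham 1, 2 and 3 lay above every PPE array. The groups overlapped through sham 4 and 5, which lay above PPE 1 and 2 and below PPE 3, 4 and 5. The means were 0.40 ± 0.78 and -0.32 ± 0.61 (SD, n = 5 each), a difference of -0.72 (SE 0.38, 95% interval -1.56 to 0.11; exact permutation p = 0.143), which turned to 0.07 when arrays were centred on their median in place of loess. The 2 slides differed in size, at -2.11 on slide 1 and -0.52 on slide 2. With slide as a fixed block the difference was -1.16 (limma, adjusted p = 0.0288), still outside the threshold.

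**Figure D2:**
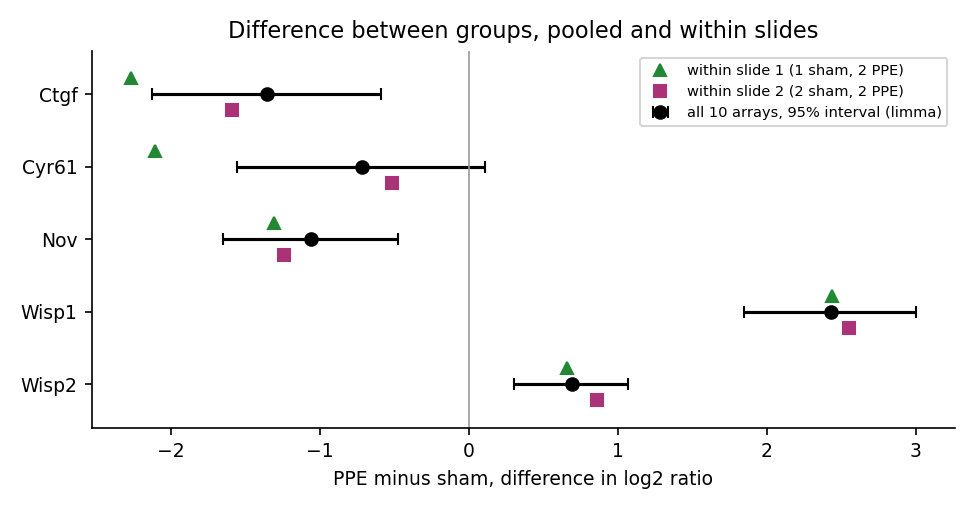
PPE minus sham difference in log2 ratio (horizontal axis) for each member, with the 95% interval from limma over all 10 arrays (black), and the difference of means within slide 1 (triangles) and slide 2 (squares). Within both slides every member keeps the sign of its pooled difference, and Cyr61 spans -2.11 to -0.52. The only sham array on slide 1, sham 1, was the highest sham array for Ctgf, Cyr61 and Nov.

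The next question was whether members responded unequally, which was tested by subtracting the log2 ratio of a member from that of another on the same array. This was done for all 10 pairs, with the exact two-sided permutation test and Benjamini-Hochberg adjustment over the pairs, and 7 passed an adjusted p of 0.05. Wisp1 and Wisp2 each differed from Ctgf, Cyr61 and Nov. The response of Ctgf was below that of Wisp1 by 3.79 (difference -3.79, SE 0.56, exact permutation, adjusted p = 0.0132) and below that of Wisp2 (difference -2.05, SE 0.40, exact permutation, adjusted p = 0.0132). Nov minus Wisp1 was -3.49 and Nov minus Wisp2 was -1.75, each with SE of 0.49 and 0.25 in that order and the same adjusted p. For Cyr61 the difference from Wisp1 was -3.15 (SE 0.52), and that from Wisp2 was -1.41 (SE 0.47, exact permutation, adjusted p = 0.0454). The latter held in only 2 of 10 fits without 1 array, those without sham 4 or PPE 4. Within the pair that rose, Wisp1 rose more than Wisp2, by 1.74 (SE 0.30, exact permutation, adjusted p = 0.0132).

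Among the 3 members that were lower in PPE, no difference in response passed the test. Ctgf minus Cyr61 was -0.64 (95% interval -1.25 to -0.02, exact permutation, adjusted p = 0.0992), which passed without PPE 2 at -0.87 (exact permutation, adjusted p = 0.0132), with the processed signal ratio at -0.70 (exact permutation, adjusted p = 0.0496) and with scaling between arrays at -1.26 (exact permutation, adjusted p = 0.0340). Ctgf minus Nov was -0.30 (95% interval -0.96 to 0.37, exact permutation, adjusted p = 0.379). Cyr61 minus Nov was 0.34 (95% interval -0.73 to 1.41, exact permutation, adjusted p = 0.50). In sham aortas the distance between Ctgf and Cyr61 had an SD of 0.15 over the 5 arrays, although each alone had an SD of 0.84 and 0.78. This was the smallest SD of any pair in either group, and it was chosen after the values were seen. In PPE aortas the SD of that distance was 0.58. Other pairs went either way from sham to PPE, with SDs of 0.47 and 0.93 for Cyr61 and Nov. For Ctgf and Wisp2 they were 0.84 and 0.27. These spreads were not tested.

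**Figure D3:**
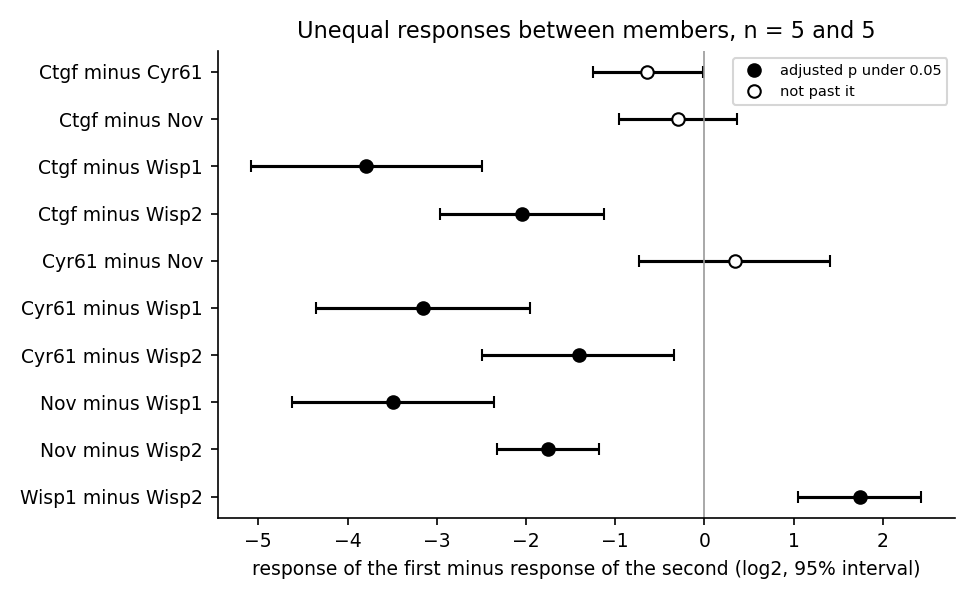
Response of the first named member minus that of the second (horizontal axis, log2, 95% interval) for the 10 pairs, with filled points for an adjusted p under 0.05. All 6 pairs of Wisp1 or Wisp2 with Ctgf, Cyr61 or Nov are filled, and the 3 open points are the pairs among Ctgf, Cyr61 and Nov.

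Across the 10 arrays, Pearson's r was 0.83 between Ctgf and Cyr61, 0.88 between Ctgf and Nov and 0.54 between Cyr61 and Nov. Between Wisp1 and Wisp2 it was 0.81, between Ctgf and Wisp1 -0.78 and between Nov and Wisp2 -0.40. These values describe 10 points that share the group difference, the slides and the reference RNA. Taken on deviations from the group means, r was 0.81 for Ctgf and Cyr61, 0.71 for Ctgf and Nov and 0.27 for Cyr61 and Nov. It was 0.31 for Wisp1 and Wisp2 and -0.25 for Ctgf and Wisp1, and for Nov and Wisp2 it changed sign, to 0.59.

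**Figure D4:**
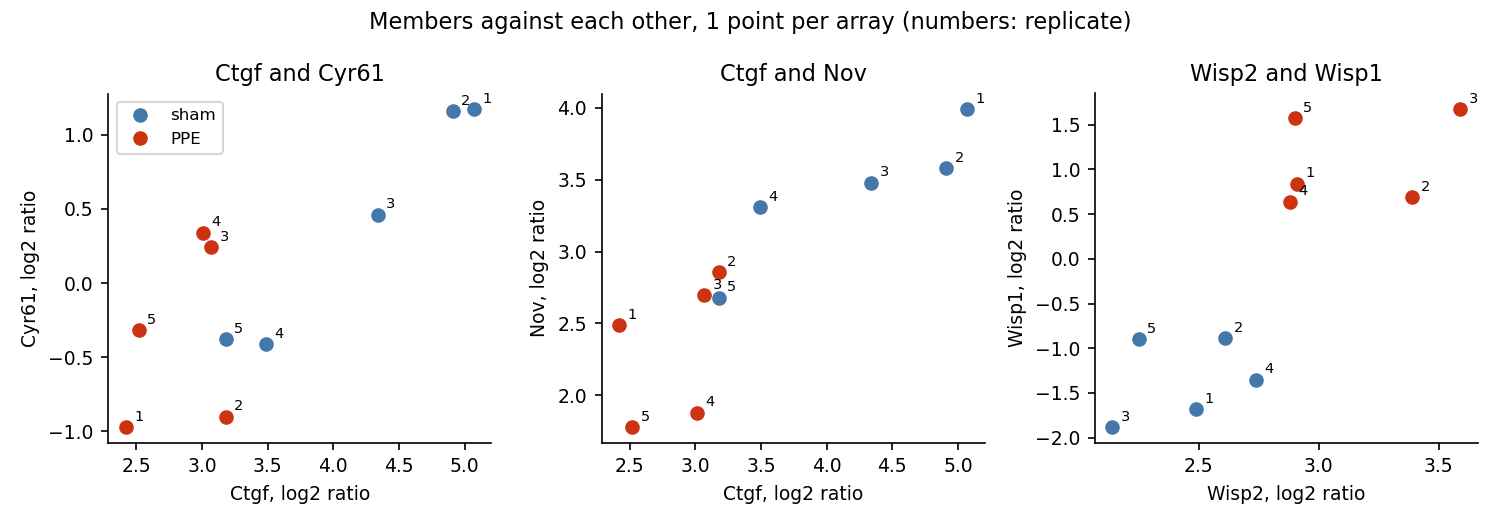
Log2 ratios of 2 members against each other, 1 point per array with its replicate number, for sham (blue) and PPE (red). Sham 1, 2 and 3 lie at the upper right for Ctgf with Cyr61 and with Nov, and the groups fall into separate corners for Wisp1 with Wisp2.

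Names most alike in pattern were taken as the highest Pearson's r with each member over the 10 arrays, among 16108 names with a RefSeq symbol. Since r spans both groups, a name picked this way tends to share the group difference of its member. Its own difference is therefore no separate result and is given without a p-value. For Wisp1 these were Ppic, a cyclophilin of the secretory pathway (r = 0.990), and Col8a1, a short-chain collagen of the vessel wall (r = 0.990). Ppic rose by 1.29 and Col8a1 by 2.02 on the log2 scale in PPE. For Wisp2 they were Fam20a, a secretory-pathway pseudokinase (r = 0.971), and Csgalnact1, which starts chondroitin sulphate chains (r = 0.966). Csgalnact1 rose by 0.63, and Fam20a had a difference of 0.56 that was not called.

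For Ctgf the nearest names were Prpf8, a core splicing factor (r = 0.956), and Bag3, a co-chaperone responsive to mechanical load (r = 0.955). Bag3 fell by 0.68, and Prpf8 had a difference of -0.41 that was not called. Taf1a, a subunit of the RNA polymerase I factor SL1 (r = 0.941), and Scai, an inhibitor of the SRF cofactor Mkl1 (r = 0.940), were nearest to Cyr61, with differences of -0.18 and -0.17 that were not called. Nov was nearest to Lysmd2 (r = 0.969) and Slc25a29, a mitochondrial carrier of basic amino acids (r = 0.969), with differences of -0.31 and -0.63 that were not called. Each is the highest r among many names, over arrays that share groups, slides and the reference.

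Genes around the family were counted in lists and read beside the shares over all names given above. Genes of these pathway lists that were called are all named, and those that were not the largest rise or fall of their list were chosen after their values were seen. Of 20 targets of YAP, TAZ and TEAD other than Ctgf and Cyr61, 18 were tested, 3 were called higher and 4 lower, with a median difference of -0.13. The rises were Nuak2, a kinase of the AMPK family (1.76, limma, adjusted p = 5.32e-05), Igfbp3 (1.24) and Gadd45a (0.95). The falls were Arhgef17 (-1.76, limma, adjusted p = 5.05e-05), F3, the gene of tissue factor (-1.27), Rbms3 (-1.24) and Tgfb2 (-1.20). Targets changed in both directions, and 11 were not called. Ankrd1, chosen after its value was seen as a standard readout of YAP, differed by 0.11 (limma, adjusted p = 0.786).

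Among the Hippo kinases and YAP cofactors, 15 of 16 were tested, 3 were higher and 4 lower, with a median of -0.12. The kinase adaptor Mobkl1b (now Mob1a) rose by 0.97 (limma, adjusted p = 0.00148), with the kinase Stk4 at 0.84 and Tead2 at 0.69. Tead3 fell by 0.82 (limma, adjusted p = 7.95e-04), with the TEAD cofactor Vgll4 at -0.70, the upstream regulator Nf2 at -0.57 and Wwtr1, the gene of TAZ, at -0.52. The groups overlapped for Tead2 and Vgll4, and the call of Vgll4 lay at the threshold (limma, adjusted p = 0.00987). Yap1, named after its value was seen, differed by -0.48 (limma, adjusted p = 0.0527).

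The promoter of Cyr61 (RefSeq gene Ccn1, GRCm38.p6, minus strand) was the only promoter of a member in the table of promoter sequences used. Its upstream bases were searched on both strands for the TEAD motif CATTCC, the SMAD motif CAGAC, the CRE half-site TGACG and the TATA motif TATAAA, and the windows around each match are shown with the match in capitals. No motif overlapped another.
TEAD, chr3:145650071-145650100: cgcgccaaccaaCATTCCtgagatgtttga
CRE half-site, on the other strand, chr3:145650026-145650055: ccgacagagctaCGTCActgcaacacgcgg
TATA, chr3:145649993-145650022: ctaggcaggcatTATAAAgggcgggctccc
The matches began 103, 58 and 25 bases before the transcript start, and CAGAC had 0 matches. In 32851 promoters of the same length, 12.6% held the TEAD motif, 42.2% the SMAD motif, 17.8% the CRE half-site and 12.4% the TATA motif. Of 16 promoters of the YAP target list, 5 held the TEAD motif. A match describes letters in the window and not binding.

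In the TGF-beta pathway, which induces Ctgf, all 16 listed genes were tested, 3 were higher and 4 lower, with a median of 0.02. The ligand gene Tgfb1 rose by 1.41 (limma, adjusted p = 1.42e-05), while Tgfb2 fell by 1.20. The latent TGF-beta binding proteins moved apart, Ltbp2 by 2.07 (limma, adjusted p = 4.57e-06) and Ltbp1 by -2.40 (limma, adjusted p = 5.37e-05). Among intracellular mediators Smad3 rose by 0.55, and the inhibitory Smad6 and Smad7 fell by 1.62 and 0.83.

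Of 12 genes for receptors that bind CCN proteins, all were tested, 2 were higher and 1 lower, with a median of -0.03. Itgb2, the leukocyte integrin chain, rose by 2.95 (limma, adjusted p = 8.45e-06), and Itga6, of the laminin receptor, rose by 1.26. Itgb3, the partner of Itgav in the vitronectin receptor, fell by 0.66 (limma, adjusted p = 0.00943). The groups overlapped for Itgb3, and its call was lost in at least 7 of the 10 fits that left out 1 array. The other 9, among them Itgav, Itgb1, Sdc4 and Lrp1, were not called. Of the 4 genes for SRF and its cofactors, which act on Cyr61 and on contractile genes, Mkl1 rose by 0.99 (limma, adjusted p = 3.09e-05). Myocd fell by 2.66 (limma, adjusted p = 0.00126), Srf fell by 0.92 and Mkl2 differed by -0.13 (limma, adjusted p = 0.548).

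Marker genes of some cell types differed between the groups, and those of others were seldom or never called. In whole aortic RNA fewer cells of a type and less RNA per cell cannot be told apart. Of 12 smooth muscle markers, 10 were lower and 0 higher, and their mean log2 ratio lay between 3.30 and 4.47 in sham and between 1.67 and 2.81 in PPE. Acta2 fell by 2.48, and Myh11 differed by -0.74 (limma, adjusted p = 0.206). On sham 1 to 5 this mean was 4.47, 4.13, 3.30, 4.11 and 3.66, and on PPE 1 to 5 it was 1.92, 2.81, 1.67, 1.72 and 1.75.

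Of 10 fibroblast and matrix markers 5 were higher and 0 lower, with mean log2 ratios from 3.13 to 3.65 in sham and from 3.60 to 4.62 in PPE. Those that rose were Col1a1, Col3a1, Col1a2, Fbln1 and Pdgfra, the last by 0.64, while Dcn differed by -0.24. Among 11 macrophage markers 7 were higher and 0 lower, from 1.12 to 1.78 in sham against 2.81 to 3.83 in PPE, with Emr1 at 3.42 and Cd68 at 2.34. Of 9 neutrophil markers tested 8 were higher, among them S100a8 by 5.52 and S100a9 by 3.25, from 0.26 to 0.43 in sham against 2.68 to 4.26 in PPE, and Ly6g was not tested.

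Of 10 lymphocyte markers 4 were higher (Cd3d by 2.97, Cd3g, Cd5 and Cd2), and Cd3e differed by 0.94 (limma, adjusted p = 0.0122). Of 10 endothelial markers 0 were called, with Pecam1 at -0.36 and Cdh5 at 1.17 (limma, adjusted p = 0.250 and 0.0167). Fat and skeletal muscle lie beside the aorta, and 2 of 8 adipocyte markers (Ucp1 and Pparg) and 1 of 7 skeletal muscle markers (Myh2) were called lower. The adipocyte list had a median difference of -0.74, with mean log2 ratios from 4.89 to 5.96 in sham and from 3.81 to 5.27 in PPE. For skeletal muscle the median was -0.33, with means from 1.48 to 4.68 in sham and from 0.75 to 3.72 in PPE. Adipoq differed by -0.45, Lep by -0.72, Ckm by -0.06 and Acta1 by -1.16, and these 4 were not called. Markers that were named beyond the first 2 of each list were chosen after their values were seen. The part of these cell types in the differences of the CCN members was not tested.

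Across 25 other settings of the analysis, Wisp1 was called higher in all 25, with differences from 2.27 to 2.97. Nov was called in 14, Ctgf in 10, Wisp2 in 7 and Cyr61 in 0.

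**Figure D5:**
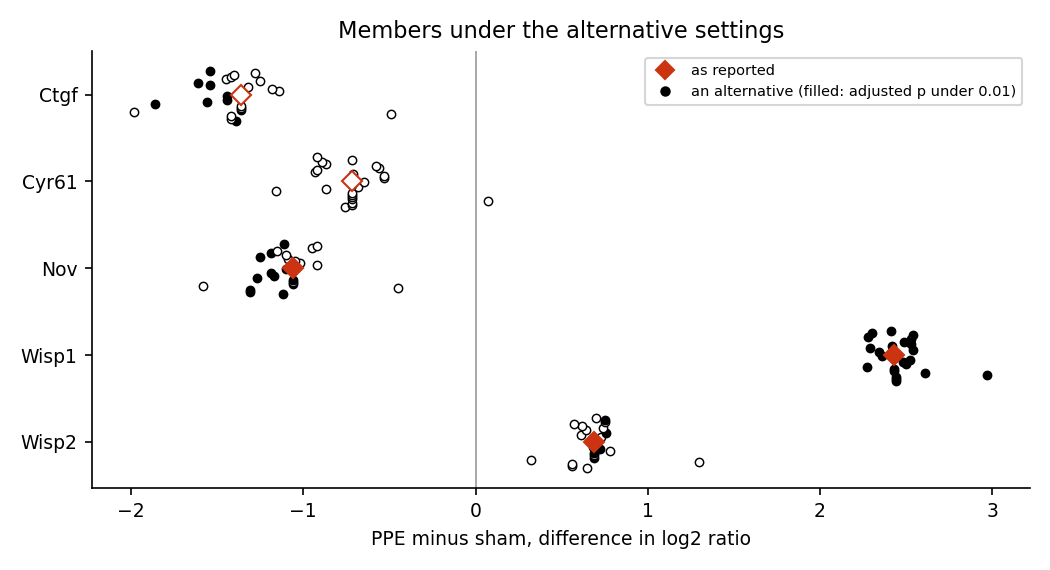
PPE minus sham difference in log2 ratio (horizontal axis) for each member as reported (red diamonds) and under each of the 25 other settings (circles), filled where the limma adjusted p was under 0.01. Wisp1 is filled throughout, Cyr61 nowhere, and the other 3 members hold both filled and open points on the same side of 0.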

How the data were processed

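RNA of 5 sham and 5 PPE aortas was hybridised by the authors to 2-colour Agilent arrays against a common reference, without dye swap, and the spots were extracted with Feature Extraction 10.7.3.1. Per the study's methods, arrays were dropped by the authors for poor hybridisation or as outliers. The deposited spot values are linear intensity. The LogRatio the authors deposited, a log10 value, entered no result. The authors' series matrix holds log2 values that equalled log2 of processed red over green on 100.0% of spots (tolerance 1e-04). Their medians per array lay between -0.160 and 0.123, so no centring was seen.

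Mean signals were corrected for background by normexp (offset 50) and loess-normalised within arrays in R 4.3.3 with limma 3.58.1. The offset understates changes of dim spots. Control spots had no weight in the loess fit and were left out of the tests. Outlier spots (176 to 331 per array, controls not counted) were left out after normalisation. Probes entered the test with red signal well above background on 5 or more of 10 arrays, and a gene name was represented by its brightest tested probe, which left 22520 of 35527 names. Of these, 16219 matched RefSeq symbols of GRCm38.p6. Exon and UTR annotation on mm9 was not used here.

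Groups were compared unpaired with limma, two-sided, with Benjamini-Hochberg adjustment over all names, at an adjusted p under 0.01 after the rate of 1% in the study, whose own test (SAM) was not rerun. Pairs of members were compared by exact permutation tests. Genes were named by rule: all members, the largest called rise and fall in each pathway list, uncalled genes of a list of 4 or fewer, the first 2 markers of each cell type, and the 2 names most alike to each member. Other called genes of the lists, and Ankrd1 and Yap1, were named after their values were seen. The values of 1 listed gene are not reported here. Members and lists were chosen with earlier results of these data known. On simulated data for PPE against sham (22520 genes, 200 changed), the limma fit recovered 53.0% of changes of 1 and 90.0% of changes of 2 on the log2 scale, with 1 false call. In the data a far larger share was called, 13.9% of names higher and 9.96% lower. The adjusted threshold depends on that share, so these rates do not describe recovery in the data. Precision is limited by the number of arrays. The p-values set a group difference against the spread among 5 arrays per group, each of 1 mouse. That spread holds differences between mice, labellings, slides and scan days together.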

Additional observations from a re-analysis of the deposited data

How the results depend on the processing

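Wisp1 kept its direction and its side of the threshold under all 25 alternatives. The other calls lay near the threshold. Ctgf passed it with a normexp offset of 10 (-1.39), above background on all 10 arrays (-1.36), slide as a fixed (-1.86) or random block (-1.56), scan day as a block (-1.44), array weights (-1.44) and without sham 5 and PPE 5 (-1.54), the last chosen after seeing the data for their low share of spots above background. Wisp2 missed it with the offset of 10 (0.65), with the processed signal ratio and the identical series matrix (0.56), without a filter on dim probes (0.69), with slide as a fixed block (0.78), with scan day (0.68) and without sham 5 and PPE 5 (0.70). Nov missed it without a filter (-1.06). Scaling between arrays took Ctgf to -1.98, Nov to -1.58 and Wisp2 to 0.32, all outside the threshold. Median centring in place of loess moved the median of all names from 0.02 to 0.41 and left 408 names higher and 8 lower, or 98.1% of calls higher against 58.2%. It reversed Cyr61 to 0.07 and took Ctgf to -0.49, Nov to -0.45 and Wisp2 to 1.30, none of them called. Cyr61 (SE 0.61; limma, adjusted p = 0.956), Ctgf and Nov then lay below the shifted median and Wisp2 above it, which was not tested. Members called higher were 1 or 2 and members called lower 0, 1 or 2 under the alternatives, and pairs with unequal responses 6 to 8. The pair tests were not refitted with blocks, weights or the trend. Array weights called 4220 names higher and 2980 lower. The processed ratio called 3098 names lower, so 50.5% of calls were higher. Leaving out 1 array gave Ctgf -1.61 to -1.14, Cyr61 -0.93 to -0.53, Nov -1.25 to -0.92, Wisp1 2.28 to 2.54, Wisp2 0.57 to 0.76, 2514 to 3615 names higher and 1752 to 2348 lower, 1 to 2 members higher, 0 to 2 lower, and 6 to 7 pairs. Over all alternatives the YAP target list had 1 to 4 genes higher and 0 to 5 lower, the Hippo list 0 to 3 and 0 to 4, the TGF-beta list 0 to 4 and 0 to 5, the receptors 0 to 2 and 0 to 1, and the SRF list 0 to 1 and 0 to 2, with the lowest counts under median centring. The cause of these shifts was not tested.

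Replicate numbers are shared by the groups, and deviations of same-numbered arrays correlated at 0.29, -0.30, 0.16, -0.14 and 0.52. Arrays of different numbers were not compared and some same-numbered arrays shared a slide. These values therefore cannot decide whether the numbers pair the arrays. With the replicate block Ctgf was -1.36 (limma, adjusted p = 0.00863) and Nov was -1.06 (SE 0.15; limma, adjusted p = 0.00120). Wisp2 was 0.69 (limma, adjusted p = 0.0206). In that fit 1 member was called higher and 2 lower, and 3024 names were higher and 2281 lower.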
